A study of Mus musculus with 4 samples.

Results

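Thrombospondins, fibronectin and the matricellular proteins are secreted proteins that link a fibroblast to the fibres around it. The genes of this set were taken by name, as the rows of the deposited expression matrix with the symbols *Thbs1*, *Thbs2*, *Thbs3*, *Comp*, *Postn*, *Tgfbi*, *Tnc*, *Sparc*, *Spp1* and *Fn1*, and all 10 were found among its 23924 genes. In tail tip fibroblasts with an autosomal *Xic* transgene (TG), which places *Xist* and its neighbours from the X-inactivation center in an autosome, *Thbs2* and *Postn* RNA was several-fold lower than in fibroblasts of wildtype littermates (WT), and *Spp1* RNA was several-fold higher. The members were chosen by name, but with their TG and WT levels and fold changes already known, so the counts below describe these genes and are no independent support for a change of the group.

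Fibronectin is assembled by integrins on the cell surface into a fibrillar matrix, on which collagens and other proteins are then laid down. Matricellular proteins are secreted into the same matrix but serve mainly as regulators: they bind collagens, growth factors, proteases and cell-surface receptors, and change how firmly cells adhere and how fibrils form. Fibroblasts are a main source of them in skin and tendon, and many are known for high expression in wounds, in tumor stroma and in culture.

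TG cells came from Tg2087/+ males of the C57BL/6J-TgBAC8-2087 line and WT cells from +/+ males of the same litter. Both were immortalized with the large T cDNA of SV40, which left them tetraploid, so the WT cells share the viral gene and the ploidy with the TG cells and differ from them, by label, in the transgene. TG and WT cells also came from different mice. An effect of the transgene cannot be told apart from other differences between those mice or the immortalized cultures made from them. The ages of the mice are not given in the sources used here. Polyadenylated RNA was sequenced in 2 WT and 2 TG libraries, named WT1, WT2, TG1 and TG2, and the values are FPKM, fragments per kilobase of gene corrected for library depth. The sources do not say if separate animals stand behind the 2 libraries of each genotype, so the p-values measure only the spread between these libraries, which may be technical.

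The libraries held between 9465712 and 14639946 reads, worked out from the FPKM values, and WT2 was 1.55 times as deep as WT1. *Xist* was at 0 FPKM in WT1, 0.108 in WT2, 2.31 in TG1 and 2.28 in TG2, higher in both libraries labelled TG. Its log2 fold change of 2.34 had a limma adjusted p of 0.0112, so even *Xist* just missed the threshold of 0.01 used for calls below. The labelled cell type was checked against 10 fibroblast markers, of which 8 were expressed enough to be tested. Their summed level lay between 5192 and 6007 FPKM, with *Vim* at 2147 to 2547 FPKM. *Col1a1* was at 867 FPKM in WT1, 789 in WT2, 407 in TG1 and 539 in TG2. However, *Lum* was listed at 0 in all 4 libraries and *Pdgfra* did not exceed 1.13 FPKM. *Dcn*, named after its values were seen, did not exceed 0.878 FPKM. None of the 8 was called by limma, and 3 were lower and 1 higher at an unadjusted p under 0.05. The share of all tested genes at that unadjusted cut was not computed, here or below, so counts at it stand without a background. Voom on the recovered reads called 1 of the 8 lower, where it called 1.34% of all tested genes lower. At a limma adjusted p under 0.05 and any size, 2 of the 8 were lower and 0 higher, against 1.54% and 2.59% of all tested genes. Both TG libraries lay below both WT libraries for 5 of the 8 and above them for 2, against 20.3% and 30.2% of all tested genes. Summed levels of endothelial markers did not exceed 0.603 FPKM and those of epidermal markers 3.17 FPKM. Blood and macrophage markers summed to between 5.21 and 12.3 FPKM, nearly all from *Cd68*, which was named after its values were seen. Of these 3 lists none was called by limma or by voom or had an unadjusted p under 0.05, with 2 genes tested in all, and *Ptprc*, *Krt5*, *Krt14*, *Cldn5*, *Bglap* and *Ibsp* were listed at 0 throughout.

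Markers shared with smooth muscle were lower in TG as a sum, but not each of them was called. The summed level of the 7 genes in that list was 8791 FPKM in WT1, 9082 in WT2, 4165 in TG1 and 4855 in TG2, most of it from *Acta2* and *Tagln*. Limma called 2 of the 5 tested genes lower in TG, against 0.469% of all tested genes. *Acta2*, *Tagln* and *Smtn*, named after their values were seen, were not called (limma adjusted p = 0.0139, 0.111 and 0.657). *Smtn* overlapped between genotypes. The late smooth muscle markers *Myh11* and *Des* did not exceed 0.435 FPKM. In bulk RNA, fewer cells of a contractile kind and less of this RNA per cell cannot be told apart, and the part of this shift in the results below was not tested. Cartilage and tendon markers summed to between 63.2 and 72.7 FPKM. Limma called 1 of the 5 tested higher and none lower, against 0.607% and 0.469% of all tested genes. At an unadjusted p under 0.05, 1 of them was lower and 1 higher. Voom called 1 lower and 1 higher, against 1.34% and 1.08% of all tested genes. Bone markers summed to between 4.97 and 8.32 FPKM with none called, 1 lower at an unadjusted p under 0.05 and 0 called by voom.

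Of the 10 genes, 9 had a mean of at least 0.5 FPKM and entered the fit of 11524 genes by limma on log2(FPKM + 0.5); *Comp* did not. A gene was called when its adjusted p was under 0.01 and its log2 fold change (TG minus WT) was at least 1 in size. *Thbs2* and *Postn* were called lower in TG, 2 genes where 0.469% of all tested genes were called lower, and *Spp1* was called higher, 1 gene where 0.607% of all tested genes were called higher. At an adjusted p under 0.05 and any size of change, *Tnc* joined the lower genes, making 3 against 1.54% of all tested genes, while *Spp1* remained the 1 higher gene against 2.59%. In 7 of the 9 tested genes both TG libraries lay below both WT libraries, as they did in 20.3% of all tested genes, and in the other 2, *Spp1* and *Tgfbi*, both lay above, as in 30.2%. The median log2 fold change was -0.71 over the 9 genes and 0.07 over all tested genes.

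**Figure D1:**
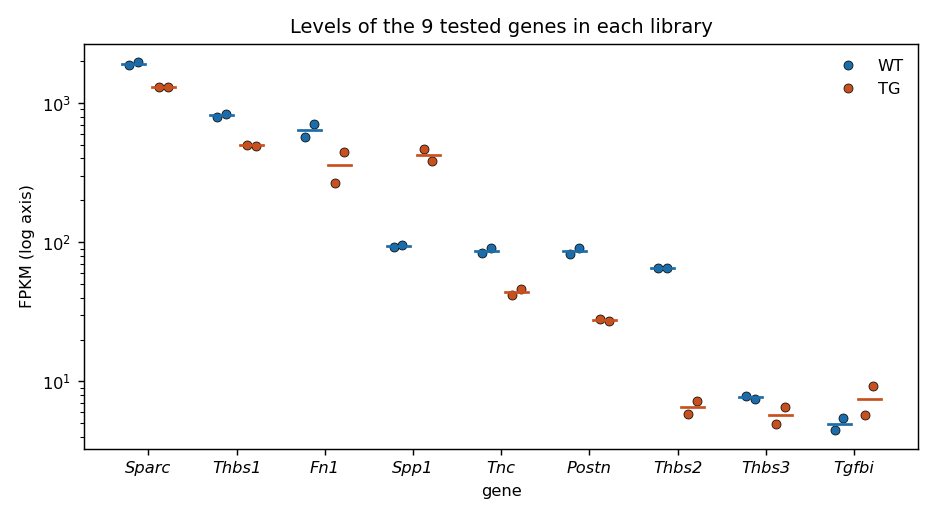
FPKM (log axis) of the 9 tested genes in each library, with WT in blue, TG in orange and a bar at the mean of 2 libraries, ordered by WT level. *Spp1* goes from 93.8 FPKM in WT to 426 in TG, *Thbs2* from 65.6 to 6.57, and the points of *Fn1* and *Tgfbi* lie farther apart within TG than those of *Sparc* and *Thbs1*.

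FPKM is scaled to gene length, so levels can be set side by side between genes. In WT, the order by mean FPKM was *Sparc*, *Thbs1*, *Fn1*, *Spp1*, *Tnc*, *Postn*, *Thbs2*, *Thbs3*, *Tgfbi* and *Comp*, and the neighbours *Tnc* and *Postn* overlapped between libraries. In TG, the order was *Sparc*, *Thbs1*, *Spp1*, *Fn1*, *Tnc*, *Postn*, *Tgfbi*, *Thbs2*, *Thbs3* and *Comp*. There *Spp1* and *Fn1* overlapped, and so did *Tgfbi*, *Thbs2* and *Thbs3*. Together the 10 genes took 1.53% of the reads in WT1, 1.70% in WT2, 0.945% in TG1 and 1.09% in TG2. Their summed level was 3575 FPKM in WT1, 3858 in WT2, 2615 in TG1 and 2738 in TG2.

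The promoters of the 3 called genes and of *Tnc*, the gene nearest to the threshold, are shown so that the genes called in opposite directions can be set side by side. Each run is the 250 bases before a start of the gene in RefSeq (GRCm38.p6), read along the gene's strand: chr17:14694263-14694512, minus strand, for *Thbs2*; chr3:54360857-54361106, plus strand, for *Postn*, at a start near which 3 annotated transcripts begin; chr4:64047016-64047265, minus strand, for *Tnc*; and chr5:104434861-104435110, plus strand, for *Spp1*. Capitals mark matches on either strand to the TATA box, the CCAAT box and the SP1 site.
Thbs2: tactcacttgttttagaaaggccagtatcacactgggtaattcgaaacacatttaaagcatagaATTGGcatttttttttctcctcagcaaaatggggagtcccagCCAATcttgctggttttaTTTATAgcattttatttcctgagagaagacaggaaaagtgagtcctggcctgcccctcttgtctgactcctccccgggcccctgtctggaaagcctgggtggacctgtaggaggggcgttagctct
Postn: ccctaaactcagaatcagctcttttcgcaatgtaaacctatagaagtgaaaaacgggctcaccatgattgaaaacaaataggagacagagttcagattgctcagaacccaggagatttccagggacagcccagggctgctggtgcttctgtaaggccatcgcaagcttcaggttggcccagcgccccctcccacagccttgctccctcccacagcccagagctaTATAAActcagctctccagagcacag
Tnc: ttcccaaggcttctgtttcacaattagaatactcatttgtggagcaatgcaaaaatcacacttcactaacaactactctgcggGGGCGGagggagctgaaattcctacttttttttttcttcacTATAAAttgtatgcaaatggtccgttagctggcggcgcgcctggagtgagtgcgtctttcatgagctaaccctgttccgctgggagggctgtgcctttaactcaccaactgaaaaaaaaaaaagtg
Spp1: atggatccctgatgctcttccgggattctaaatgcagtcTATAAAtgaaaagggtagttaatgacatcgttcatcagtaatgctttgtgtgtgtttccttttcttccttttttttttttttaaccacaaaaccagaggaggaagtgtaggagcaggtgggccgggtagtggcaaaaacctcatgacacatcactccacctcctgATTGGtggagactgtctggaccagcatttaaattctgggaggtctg

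The TATA box was searched as TATAAA. Positions are counted back from the start, so that -1 is the base next to it. *Postn* held this motif at -26 to -21, where a TATA box usually lies, whereas the matches in *Tnc* and *Thbs2* lay at -126 to -121, that of *Thbs2* on the reverse strand, and the match in *Spp1* lay at -211 to -206. Another RefSeq start of *Tnc*, at 64046936, is not shown and held TATAAA at -205 to -200. The related letters TATATAA stand close before that start, but the exact search did not count them. CCAAT was found in *Spp1* at -46 to -42 on the reverse strand, and in *Thbs2* at -186 to -182 on the reverse strand and at -144 to -140. Promoters were held for 7 of the 10 genes, 10 promoters in all. TATAAA was present in 4 of the 7 genes and in 12.4% of 32851 mouse promoters of the same length, CCAAT in 3 and in 33.8%, and the SP1 letters GGGCGG in 3 and in 32.7%. A gene counted if any of its promoters matched, and the 7 genes had 10 promoters, so these counts can run above a share of promoters. The letters GGAATG, which TEAD factors bind, TGANTCA, which AP-1 binds, and the CArG box, bound by serum response factor, were in none of the 7 genes' windows, against 12.6%, 6.75% and 1.47% of all promoters. TATAAA and CCAAT thus occurred in lower and higher genes alike, and a match or its absence in this window says nothing of whether a factor acts there.

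*Thbs1* and *Thbs2* encode the trimeric thrombospondins, which inhibit the growth of new vessels through the receptors CD36 and CD47 and bind proteases and growth factors. *Thbs1* also activates latent TGF-beta, and *Thbs2* is needed for normal collagen fibrils in skin. *Thbs2* (chr17:14665500-14694262, minus strand) was at 65.5 FPKM in WT1, 65.6 in WT2, 5.88 in TG1 and 7.27 in TG2. The 2 WT libraries were nearly equal, and both TG libraries lay far below them. The mean was 65.6 ± 0.110 in WT against 6.57 ± 0.977 in TG (FPKM, SD, n = 2 each), 10.0% of the WT level. The log2 fold change was -3.23 (SE 0.19, 95% interval -3.66 to -2.80, limma adjusted p = 2.87e-05), the 5th lowest of all tested genes. Behind these values stood 3578, 5547, 405 and 464 reads in the order above, and the exact Poisson intervals, which cover counting error only, were 5.32 to 6.49 FPKM in TG1 and 6.62 to 7.96 FPKM in TG2. Among tested genes ordered by level, *Thbs2* stood at rank 1323 in WT1 and 1257 in WT2, and at 7453 in TG1 and 6766 in TG2. Leaving out WT1 gave a log2 fold change of -3.23 with a limma adjusted p of 0.0194, no longer under 0.01, while the call held without any other single library.

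*Thbs1* (chr2:118111876-118127133, plus strand) was the more abundant thrombospondin, at 794 FPKM in WT1, 837 in WT2, 499 in TG1 and 495 in TG2. The groups did not overlap and the libraries within each group were close, at 816 ± 30.7 in WT against 497 ± 2.56 in TG (FPKM, SD, n = 2 each), but *Thbs1* was not called, with a log2 fold change of -0.71 (SE 0.18, 95% interval -1.11 to -0.32, limma adjusted p = 0.0534). Voom on the recovered reads gave -0.78 with a voom adjusted p of 0.000414, under 0.01 but short of the fold required for a call. *Thbs1* was at 60.9% of the WT level, against the 10.0% of *Thbs2*. The ratio of *Thbs1* to *Thbs2* FPKM was 12.1 in WT1 and 12.8 in WT2, and 84.7 in TG1 and 68.1 in TG2. Within the summed FPKM of the thrombospondins, *Thbs2* made up 7.55% in WT1, 7.21% in WT2, 1.15% in TG1 and 1.43% in TG2, and *Thbs1* made up between 91.5% and 97.8% in all 4. The summed level itself was 867 FPKM in WT1, 910 in WT2, 509.6 in TG1 and 508.8 in TG2.

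*Thbs3* and *Comp* encode thrombospondins that assemble with 5 chains; *Comp*, cartilage oligomeric matrix protein, is typical of cartilage and tendon. *Thbs3* (chr3:89215180-89226841, plus strand) was at 7.89 FPKM in WT1, 7.50 in WT2, 4.92 in TG1 and 6.59 in TG2. The TG values lay below the WT values, but with 231 to 432 reads the counting intervals of TG2 (5.85 to 7.40 FPKM) and WT2 (6.81 to 8.24 FPKM) overlapped. The log2 fold change was -0.40 (SE 0.23, 95% interval -0.92 to 0.12, limma adjusted p = 0.385), so a difference was not detectable here. *Thbs3* shares 318 exonic bases with *Mtx1*, a gene of the opposite strand at 137 to 190 FPKM, and whether the counting used the strand is not stated, so reads in the shared bases cannot be assigned. *Comp* (chr8:70373548-70382066, plus strand) had 3 reads in WT1, 0 in WT2, 7 in TG1 and 0 in TG2, or 0.139, 0, 0.258 and 0 FPKM. The genotypes overlapped, and a count of 0 allows up to 3 reads, which is 0.0900 FPKM in WT2 and 0.119 FPKM in TG2.

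*Postn* and *Tgfbi* encode periostin and the TGF-beta-induced protein, both built of fasciclin domains; periostin helps to bring together collagen and the enzymes that prepare it for crosslinking. *Postn* (chr3:54359267-54391041, plus strand) was at 82.4 FPKM in WT1, 90.5 in WT2, 28.2 in TG1 and 27.0 in TG2. Both TG libraries lay below both WT libraries, with 86.4 ± 5.68 in WT against 27.6 ± 0.844 in TG (FPKM, SD, n = 2 each), 31.9% of the WT level. The log2 fold change of -1.63 (SE 0.17, 95% interval -2.01 to -1.24, limma adjusted p = 0.000855) rested on 2541, 4313, 1094 and 972 reads. The call was lost without WT1 (log2 fold change -1.70, limma adjusted p = 0.0308) and without WT2 (-1.56, limma adjusted p = 0.0395), with the size of the change much the same. *Tgfbi* (chr13:56609586-56639359, plus strand) lay on the other side, at 4.45 FPKM in WT1, 5.44 in WT2, 5.74 in TG1 and 9.22 in TG2. The groups did not overlap, yet TG2 was 1.61 times TG1, more than TG1 differed from WT2. Its log2 fold change was 0.52 (SE 0.27, 95% interval -0.07 to 1.12, limma adjusted p = 0.321), on 109 to 264 reads a library, and it was not called.

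*Tnc*, tenascin-C, is a hexameric glycoprotein that binds fibronectin, weakens cell adhesion and is made at wound edges and in tendon. *Tnc* (chr4:63959785-64047015, minus strand) was at 83.9 FPKM in WT1, 90.6 in WT2, 41.7 in TG1 and 46.3 in TG2. The libraries of a genotype lay close together and the genotypes well apart, at 87.3 ± 4.71 in WT against 44.0 ± 3.22 in TG (FPKM, SD, n = 2 each), 50.4% of the WT level. *Tnc* missed both thresholds narrowly, with a log2 fold change of -0.98 (SE 0.17, 95% interval -1.36 to -0.60, limma adjusted p = 0.0131). On the recovered reads, 5739, 9581, 3596 and 3700, limma's voom gave a log2 fold change of -1.06 (adjusted p = 4.01e-05) and called it. Voom thereby called 3 of the genes lower, where it called 1.34% of all tested genes lower, and 1 higher, where it called 1.08%. *Tnc* and *Postn* were thus at about the same level in WT and set apart in TG, where the lowest *Tnc* value, 41.7 FPKM, was above the highest *Postn* value, 28.2 FPKM.

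*Sparc*, also called osteonectin, binds collagen and calcium and was the most abundant gene of the set in every library. *Sparc* (chr11:55394159-55420080, minus strand) was at 1877 FPKM in WT1, 1961 in WT2, 1297 in TG1 and 1314 in TG2, ranks 21, 17, 31 and 31 among tested genes. The genotypes did not overlap, but the difference was modest, with 68.0% of the WT level in TG and a log2 fold change of -0.56 (SE 0.19, 95% interval -0.98 to -0.13, limma adjusted p = 0.145). *Sparc* had at least 36212 reads in each library. On those reads voom gave -0.62 with an adjusted p of 0.00428, under 0.01 but short of the fold required for a call.

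*Spp1* encodes osteopontin, a phosphorylated protein of bone, kidney and inflamed tissue that binds integrins and CD44. *Spp1* (chr5:104435111-104441053, plus strand) was at 92.1 FPKM in WT1, 95.6 in WT2, 465 in TG1 and 387 in TG2. It was the only one of the 10 genes called higher in TG, at 93.8 ± 2.47 in WT against 426 ± 55.6 in TG (FPKM, SD, n = 2 each), a 4.54-fold difference of the means. The log2 fold change was 2.17 (SE 0.18, 95% interval 1.78 to 2.57, limma adjusted p = 0.000255), the 43rd highest of all tested genes, on 1315, 2111, 8375 and 6458 reads. The call was lost without WT1 (log2 fold change 2.14, limma adjusted p = 0.0238) and without WT2 (2.20, limma adjusted p = 0.0175). *Spp1* stood at rank 913 in WT1 and 848 in WT2, but at rank 134 in TG1 and 176 in TG2. The bone markers *Bglap* and *Ibsp*, which are expressed beside *Spp1* in osteoblasts, were listed at 0 in all 4 libraries. *Runx2*, the transcription factor of that lineage and here named after its values were seen, was at 7.14 FPKM in WT1, 8.14 in WT2, 4.83 in TG1 and 5.28 in TG2, lower in both TG libraries (log2 fold change -0.55, limma adjusted p = 0.212). The cartilage marker *Sox9*, named in the same way, was called higher, at 1.90, 2.44, 7.11 and 9.05 FPKM in that order (log2 fold change 1.68, limma adjusted p = 0.00671). Whether the *Spp1* difference goes with a skeletal lineage was not tested. In the annotation *Spp1* shares 309 exonic bases with *Gm42793*, a model of the same strand that is not among the genes of the matrix.

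The opposite moves changed the balance of the set. *Spp1* was 1.41 times *Thbs2* in WT1 and 1.46 times in WT2, against 79.1 times in TG1 and 53.2 times in TG2. The ratio of *Spp1* to *Postn* was 1.12 and 1.06 for the WT libraries, against 16.5 and 14.3 for TG. *Sparc* exceeded *Spp1* 20.4 and 20.5 times in WT but 2.79 and 3.40 times in TG.

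*Fn1*, fibronectin itself, carries the binding sites for integrins, collagens and heparin on which the matrix is assembled. *Fn1* (chr1:71585473-71653280, minus strand) was at 568 FPKM in WT1, 704 in WT2, 267 in TG1 and 447 in TG2. The genotypes did not overlap, but the libraries of a genotype did not agree: WT2 was 1.24 times WT1 and TG2 was 1.67 times TG1, on 26341 to 85292 reads. The counting intervals of the TG libraries, 264 to 270.2 FPKM in TG1 and 442 to 451 FPKM in TG2, did not overlap. The mean was 636 ± 95.8 in WT against 357 ± 127 in TG (FPKM, SD, n = 2 each), and the log2 fold change of -0.87 (SE 0.25, 95% interval -1.42 to -0.32, limma adjusted p = 0.0803) was not called. Voom on the recovered reads gave -0.94 with a voom adjusted p of 0.000486, under 0.01 but short of the fold required for a call. Without TG1 the limma log2 fold change was -0.50 and without TG2 -1.24, so its size depended on which TG library was kept. The authors linked the transgene to chromosome 1, where the higher coordinate of *Fn1*, its start on the minus strand, lies 1.17 Mb before *Igfbp2*, a gene they reported as repressed. Whether this position bears on *Fn1* was not tested.

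**Figure D2:**
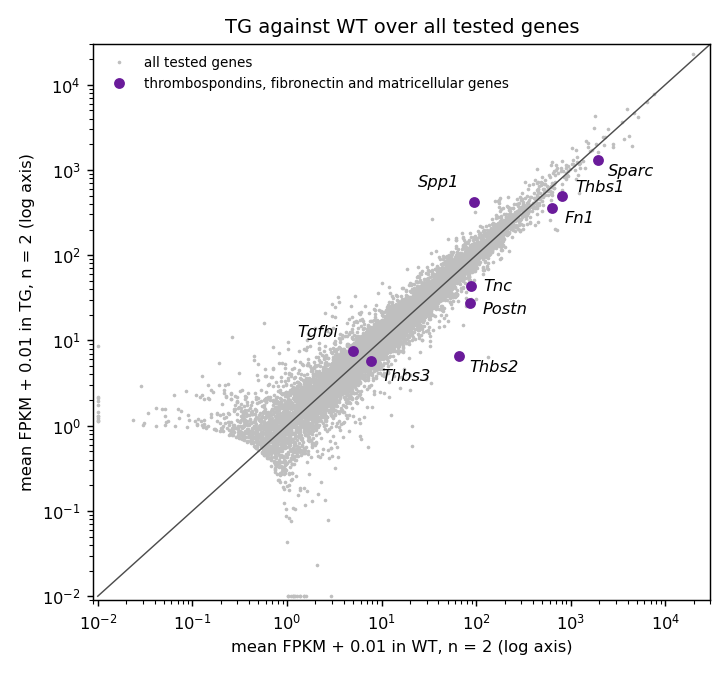
Mean FPKM + 0.01 in TG against WT (log axes, n = 2 each) for all 11524 tested genes in grey, with the 9 tested genes of the set in purple and the line of equality. *Thbs2* (65.6 FPKM in WT, 6.57 in TG) stands at the lower edge of the cloud at its level and *Spp1* (93.8 and 426) at the upper edge, while *Sparc*, *Thbs1* and *Fn1* lie below the line among the most abundant genes.

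The wider family held 27 further genes: other thrombospondins and tenascins, SPARC relatives, the small integrin-binding glycoproteins of bone, the CCN proteins, spondins and other secreted adhesion proteins. Of these, 21 were above 0 in at least 1 library and 11 were tested; the bone glycoproteins *Ibsp*, *Mepe* and *Dspp* were among the 6 listed at 0. Limma called 1 lower and 1 higher in TG, against 0.469% and 0.607% of all tested genes. In 5 of the 11 the TG libraries lay below the WT libraries, against 20.3% of all tested genes, and in 2 they lay above, against 30.2%. The median log2 fold change over the 11 was -0.26.

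Both called relatives were CCN genes, which encode cysteine-rich modulators of growth factor and integrin signalling. *Ccn2*, connective tissue growth factor, was at 605 FPKM in WT1, 590 in WT2, 259 in TG1 and 252 in TG2. Within each genotype the values were close, and the log2 fold change was -1.22 (SE 0.17, limma adjusted p = 0.00435), so *Ccn2* fell to 42.8% of its WT level. *Ccn3*, another gene of this family, was at 0.946 FPKM in WT1, 2.29 in WT2, 8.75 in TG1 and 7.93 in TG2. Its WT values rested on 20 and 75 reads and lay well below the TG values, with a log2 fold change of 2.14 (SE 0.33, limma adjusted p = 0.00665). Both calls were lost when any 1 library was left out, with limma adjusted p between 0.0215 and 0.0655 for *Ccn2* and between 0.0126 and 0.0590 for *Ccn3*; without WT1 the log2 fold change of *Ccn3* was 1.66.

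Of the other relatives named for their level, none was called. *Ccn1*, which like *Ccn2* binds integrins, was at 502, 541, 524 and 572 FPKM in WT1, WT2, TG1 and TG2, and the genotypes overlapped (log2 fold change 0.07, limma adjusted p = 0.877, direction reversed under quantile normalization). *Mfge8*, a bridge between integrins and dying cells, was at 293, 230, 214 and 214 FPKM in the same order (log2 fold change -0.28, limma adjusted p = 0.459). *Fstl1*, a secreted glycoprotein of the SPARC family, was at 256, 263, 211 and 222 FPKM (log2 fold change -0.26, limma adjusted p = 0.444). *Smoc2* and *Ccn4*, singled out after their values were seen, had TG values below all WT values, with a limma adjusted p under 0.05 but a change short of a call: *Ccn4* had 120, 142, 64.9 and 76.8 FPKM (log2 fold change -0.89) and *Smoc2* 76.6, 61.4, 40.4 and 35.3 FPKM (log2 fold change -0.85).

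Of 19 genes for receptors of these proteins, 12 were tested. Limma called 1 lower in TG and 0 higher, against 0.469% and 0.607% of all tested genes, and voom likewise called 1 lower and 0 higher, against 1.34% and 1.08%. At an unadjusted p under 0.05, 1 was lower and 3 were higher, with no share of all tested genes computed at that cut. The TG libraries lay below the WT libraries for 3 of the 12 and above them for 5, against 20.3% and 30.2% of all tested genes. The median log2 fold change was 0.11, near the 0.07 of all tested genes. The called gene was *Itgb3*, the chain that pairs with the *Itgav* product into an integrin for osteopontin, fibronectin, periostin and thrombospondins. *Itgb3* was at 11.3 FPKM in WT1, 12.6 in WT2, 2.68 in TG1 and 3.87 in TG2, on 600, 1040, 180 and 241 reads. Both TG libraries lay below both WT libraries, with a log2 fold change of -1.74 (SE 0.24, limma adjusted p = 0.00435). The call was lost without WT1 (limma adjusted p = 0.0590), without WT2 (limma adjusted p = 0.114) and without TG1 (limma adjusted p = 0.0165).

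*Itgav* itself, named after its values were seen, was at 27.9, 32.6, 25.1 and 28.5 FPKM in WT1, WT2, TG1 and TG2 and overlapped between genotypes. *Itgb1*, the chain shared by most matrix integrins, was at 414, 374, 331 and 326 FPKM (log2 fold change -0.26, limma adjusted p = 0.464). *Calr*, calreticulin, which takes part in thrombospondin signalling at the surface but works mainly in the endoplasmic reticulum, was at 1162, 1299, 1143 and 1173 FPKM and overlapped (log2 fold change -0.09, limma adjusted p = 0.855). Of the syndecans, heparan sulfate proteoglycans that help integrins to bind fibronectin, only *Sdc1* and *Sdc4* were on the list, and both lay on the higher side. *Sdc4* was at 76.1, 76.5, 126 and 142 FPKM (log2 fold change 0.81, limma adjusted p = 0.0274), and *Sdc1* was at 109, 85.8, 129 and 133 FPKM (log2 fold change 0.43, limma adjusted p = 0.223); neither was called. *Cd44*, a receptor of osteopontin also named after its values were seen, was at 50.2, 56.0, 82.2 and 83.9 FPKM (log2 fold change 0.64, limma adjusted p = 0.0665). Of the thrombospondin receptors, *Cd36* had 2 reads in WT1, 1 in WT2 and 0 in both TG libraries, and *Cd47* was at 4.20, 5.03, 7.54 and 5.56 FPKM (log2 fold change 0.45, limma adjusted p = 0.356).

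**Figure D3:**
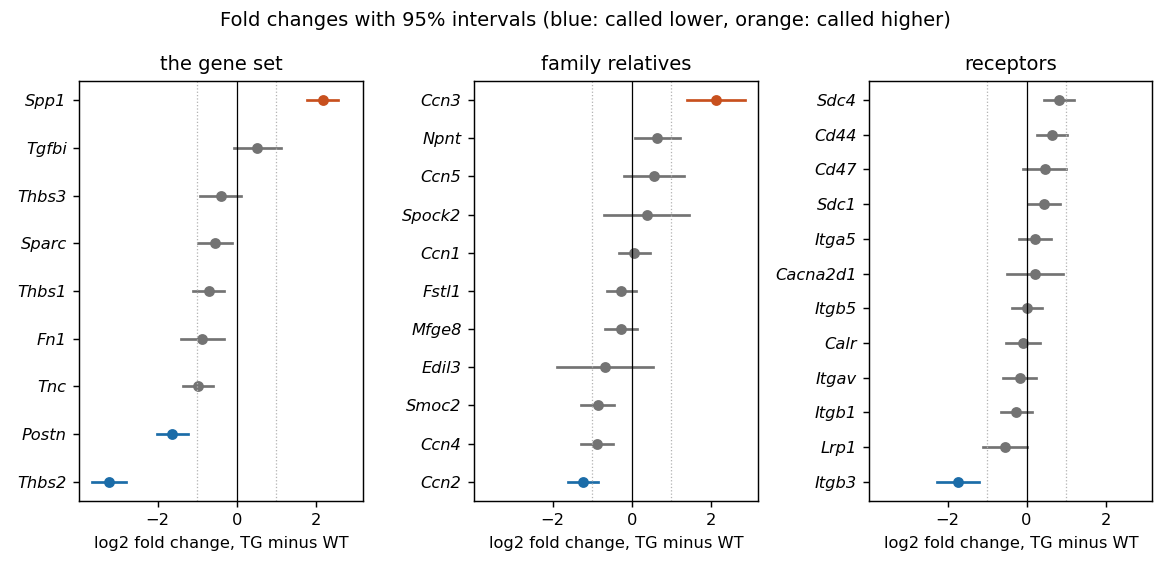
Log2 fold changes (TG minus WT) with 95% intervals of limma for the tested genes of the set, of the wider family and of the receptors, with blue for genes called lower, orange for genes called higher and dotted lines at a change of 1. The called genes are *Thbs2* (-3.23), *Postn* (-1.63), *Ccn2* (-1.22) and *Itgb3* (-1.74) on the lower side and *Spp1* (2.17) and *Ccn3* (2.14) on the higher side.

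**Figure D4:**
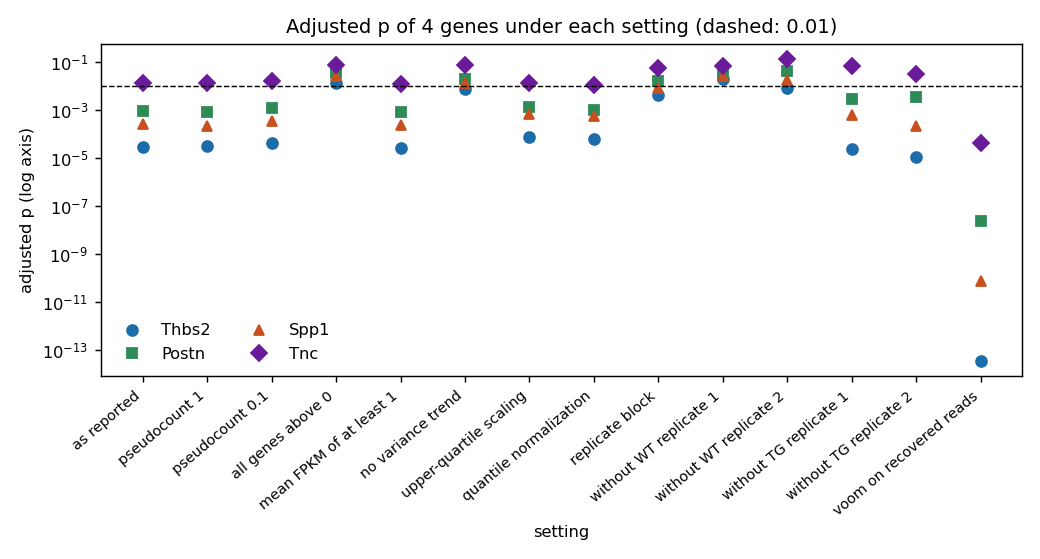
Adjusted p (log axis) of *Thbs2*, *Postn*, *Spp1* and *Tnc* in the fit as reported and under 13 other settings, with the threshold of 0.01 dashed. *Thbs2* lies above the line under 2 settings (without WT1, 0.0194, and with all genes above 0, 0.0127), and *Tnc* lies below it only with voom on the recovered reads.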

How the data were processed

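RNA-seq of 2 WT and 2 TG libraries was analysed, each library placed in its genotype by its label. The authors used Rsubread for alignment to mm10 and for gene counts, and turned the counts into FPKM; the deposited FPKM matrix was the starting point here. The authors' own test, by DESeq, was not used. Versions, and whether strand was used in counting, are not given in the sources used here.

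Genotypes were compared by limma 3.58.1 in R 4.3.3 (lmFit, then eBayes with trend) after adding a pseudocount of 0.5 and taking log2. A mean FPKM of 0.5 or more was required, which left 11524 genes, and p was adjusted over all of them by the method of Benjamini and Hochberg. The pseudocount understates the change of low genes. Calls required an adjusted p under 0.01 and a change of 1 or more in size on the log2 scale. The members, the lists of relatives, receptors and markers, and the tests were chosen with earlier results of these data known. Named were all 10 members, each called relative or receptor, the 4 highest of each list, *Xist*, and 4 fibroblast markers; others were chosen after their values were seen.

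Because FPKM values of low genes differed between libraries by ratios of small whole numbers, whole reads could be recovered for the 15530 genes above 0. For 622 of them GENCODE exonic length fixed a common factor; for the members the smallest whole solution was taken, so their reads could be multiples of those printed, which would narrow the Poisson intervals. Doubled reads would need a gene longer than all its annotated exons together for 9 of the 10 members, *Postn* being the exception. The recovered reads made up 98.7% to 98.8% of the totals. Limma's voom with median-ratio size factors (0.8015, 1.235, 1.076 and 0.9598 for WT1, WT2, TG1 and TG2) was run on them as an alternative. Poisson intervals (scipy 1.17.1 in Python 3.11.15) cover counting error only. Also tried were pseudocounts of 0.1 and 1, no filter on genes above 0, a filter at 1 FPKM, eBayes without the trend, scaling to the upper quartile, quantile normalization, a replicate block, fits without 1 library, and a threshold of 0.05. The tests were tried on simulated data. Positions and promoters are from RefSeq (GRCm38.p6); promoters of *Thbs1*, *Fn1* and *Comp* were not used here.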

Additional observations from a re-analysis of the deposited data

How the results depend on the processing

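The log2 fold changes of the 9 tested genes of the set kept their direction under the 9 of 14 alternatives that can change a fold change (the other 5 alter only the test or the genes tested), and so did those of *Ccn2*, *Ccn3* and *Itgb3*; *Ccn1* turned to -0.036 under quantile normalization. The calls depended more on the fit than the sizes did. Of the 2 members called lower, 0 were called with all genes above 0, and 1 (*Thbs2*) with no variance trend; the member called higher, *Spp1*, was called in neither, leaving 0. Of the 2 relatives and receptors called lower and the 1 called higher, 0 were called in these 2 settings, and 0 were called higher with upper-quartile scaling. At an unadjusted p under 0.05, 5 members were lower and 1 higher with all genes above 0, and 6 and 1 with no variance trend, while the relatives and receptors counted 4 lower and 4 higher in both. The share of all tested genes at that cut was not computed for any setting, so these counts have no background beside them. With 1 library left out, the remaining one of its genotype was assumed to vary like the others. The counts then ranged from 0 to 2 and from 0 to 1 for members called lower and higher, and from 0 to 1 and from 0 to 0 for relatives and receptors. Leaving out WT1 left no call among them (at an unadjusted p under 0.05, 6 members were lower and 1 higher, and 4 relatives and receptors lower and 4 higher). The cause of these changes was not tested. Voom on the recovered reads called 3 members lower (*Thbs2*, *Postn* and *Tnc*) and 1 higher. Over all tested genes the calls were 54 lower and 70 higher as reported, 53 and 47 with upper-quartile scaling, 55 and 47 with quantile normalization, 154 and 125 with voom, 121 and 229 at an adjusted p under 0.05, 6 and 3 with no variance trend, 1 and 0 with all genes above 0, 1 and 0 without WT1, 2 and 7 without WT2, 47 and 47 without TG1, and 41 and 66 without TG2.

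The replicate numbers are shared between genotypes, but nothing in the labels says that they pair libraries, and the deviations of same-numbered libraries from their genotype means correlated at -0.03 over 11524 genes. With the replicate number as a block, 1 member (*Thbs2*) was called lower and *Spp1* remained called higher, and 0 relatives and receptors were called lower and 0 higher (4 and 4 at an unadjusted p under 0.05); over all tested genes 8 were called lower and 12 higher.

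With 2 libraries a genotype, an exact permutation test of a single gene could not pass the threshold, so the calls rest on a spread pooled over genes. Depth limits *Comp*, at 0 to 7 reads a library; for *Thbs3* and *Tgfbi*, at 109 to 432 reads, the Poisson intervals of the TG libraries did not overlap each other.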
